A study of Mus musculus with 6 samples.

Results

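The ADAM family (a disintegrin and metalloproteinase) was followed in mouse testes with and without Hsf5, taking every protein-coding gene of the deposited table whose symbol is Adam, a number and at most 1 letter. This gave 27 genes of 29333, with the secreted Adamts family and Adamdec left out. By their known main site of expression, 15 were classed as germ cell and 12 as somatic members. The samples were whole testes from Hsf5 knockout mice and from controls collected on postnatal day 16, when the most advanced germ cells are pachytene spermatocytes. Hsf5 encodes a heat shock factor made in spermatocytes. Controls are labelled wild type, but by the design text some may be Hsf5+/-. The labels list 3 samples per group, of which knockout 1, knockout 3, control 1 and control 2 were analysed. Neither strain nor knockout allele is named in the sources used.

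ADAM proteins are membrane proteins that carry a prodomain, a metalloprotease domain, a disintegrin domain and a cysteine-rich region. Some are active proteases that release growth factors, cytokines and Notch from cell surfaces, while others lack the zinc-binding residues and act through binding. A large branch of the family is made in male germ cells, where the proteins are assembled in the endoplasmic reticulum and carried to the sperm surface. In the mouse, fertilin is a dimer of ADAM1b and ADAM2, and sperm without ADAM3 fail to enter the oviduct and to bind the egg coat.

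The 7 germ cell genes Adam1b, Adam3, Adam18, Adam32, Adam5, Adam30 and Adam2 fell in the knockout testes, by between 3.61-fold for Adam2 and 109-fold for Adam1b in mean level. The somatic proteases Adam9 and Adam17 kept 99.4% and 100.4% of their control level, and 1 somatic gene, Adam15, rose to 138%, a call that DESeq2 and every fit lacking 1 library lost. The groups did not overlap for any of the 7 falling genes. Of the 15 germ cell members 8 had a mean normalised read count of at least 10 and were tested, and the remaining 7 were nearly silent in all libraries. Adam1b and Adam18 passed that filter through their control libraries alone. Both enter the count and the median over tested germ cell members, which are therefore descriptions. The limma test over 17480 genes, at a Benjamini-Hochberg (BH) adjusted p under 0.05, called 13.5% of all genes lower and 3.28% higher in knockouts. Among tested germ cell members 7 of 8 were called lower and 0 higher, and among 11 tested somatic members 0 were lower and 1 was higher. At an unadjusted p under 0.05 limma likewise had 0 germ cell members higher and 0 somatic members lower, as did the edgeR and DESeq2 calls on recovered reads. Over all genes edgeR called 12.3% lower and 2.94% higher and DESeq2 11.3% lower and 2.26% higher, which are also the shares in the authors' deposited table. The median log2 fold change of knockout over control was -4.39 over the 8 tested germ cell members, 0.01 over the 11 somatic members and 0.01 over all genes tested. Without the mean-variance trend limma called no ADAM gene, and only 40 genes in all, with BH-adjusted p from 0.0925 to 0.124 for the 7 falls. Groups that did not overlap, with the knockouts below, were found in 31.9% of all tested genes, and with the knockouts above in 29.8%. Among the 19 tested ADAM genes 9 had the knockouts below, 7 germ cell and 2 somatic, and 4 had them above, all somatic.

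**Figure D1:**
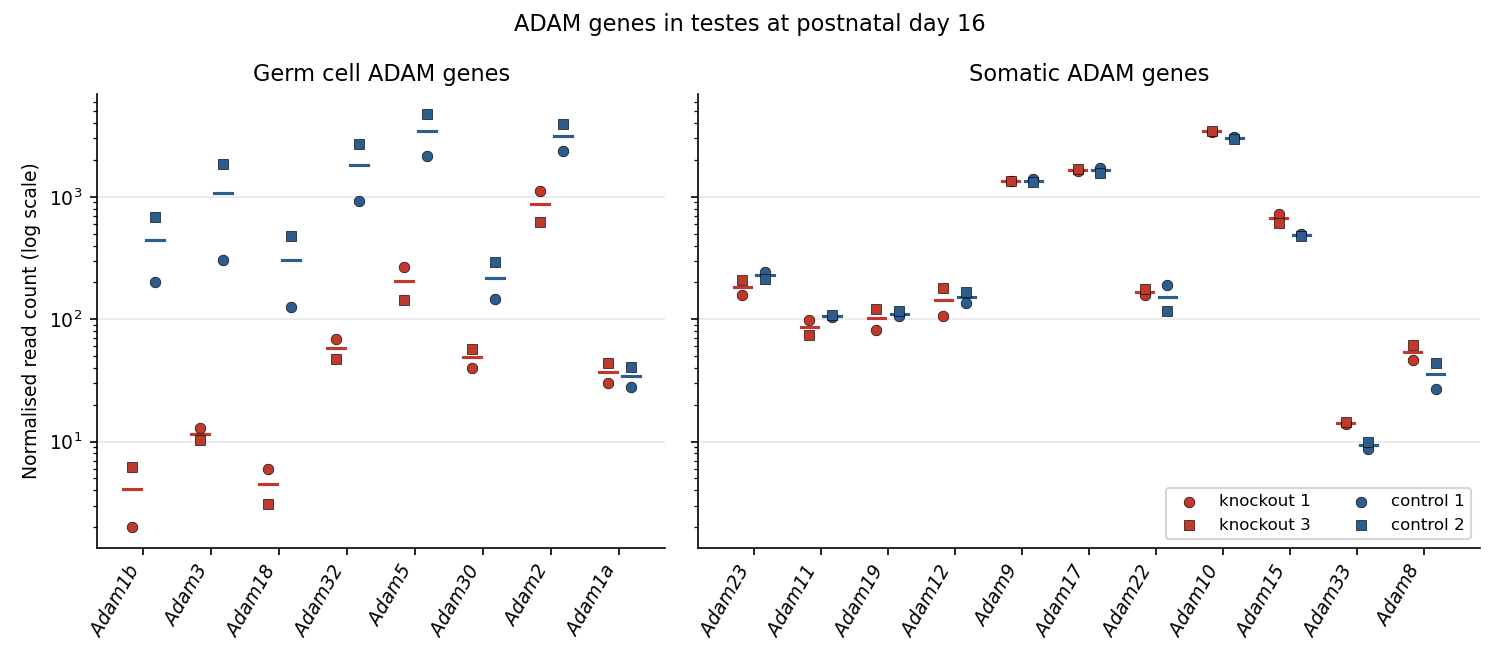
Normalised read count (log scale) of the 19 tested ADAM genes in each library, with germ cell members on the left and somatic members on the right. Horizontal bars are group means of 2 libraries. The 7 leftmost germ cell genes lie lower in both knockout libraries than in either control. Among the somatic genes Adam10, Adam15, Adam8 and Adam33 lie higher in both knockouts, and Adam23 and Adam11 lie lower. Only Adam15 of these somatic genes passed the test. Over all tested genes the knockouts lay above in 29.8% and below in 31.9%.

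Several features of the samples bear on these values. The recovered reads per library lay between 16209093 and 18557898. Hsf5 itself had a normalised read count of 1926 and 1602 in knockouts 1 and 3, against 2541 and 3147 in controls 1 and 2, so its transcript was lower but not absent. The log2 fold change of Hsf5 was -0.69 (SE 0.12, limma, BH-adjusted p = 0.00716), and without knockout 3 it lost the call (adjusted p = 0.0741). Whether these reads fall outside the deleted part is not known here. Spearman correlation over genes was 0.993 between the knockouts and 0.987 between the controls, and control 2 lay farther from the knockouts (0.940 and 0.947) than control 1 did (0.969 and 0.973). Marker calls are to be read beside the 13.5% of all genes lower and 3.28% higher. Of 13 tested pachytene spermatocyte markers 13 fell, and their summed level was 21644 and 17273 in the knockouts, against 58231 and 85468 in the controls. Pou5f2, 1 of these markers, passed the filter on low values through the controls alone, so this count is a description. Of 14 markers of early meiotic prophase 3 fell, with sums of 45286 and 38046 in the knockouts and 45593 and 51950 in the controls. Of 6 tested spermatid markers 4 fell, and of 14 Sertoli cell markers 5 rose, with Sertoli sums of 131318 and 124451 in the knockouts and 110267 and 102662 in the controls. Spermatogonial markers had 3 rises and 1 fall among 13, and Leydig markers 1 rise and 0 falls among 8. The Leydig rise was that of Nr5a1, with a log2 fold change of 0.27, while the median of the Leydig list was -0.26. At an unadjusted p under 0.05 limma had 2 Leydig markers lower and 1 higher. No myoid and stromal, macrophage or endothelial marker was called by limma, with at most 1 of any of these lists at an unadjusted p under 0.05 and 0 by edgeR and DESeq2. The pachytene markers and 4 of the 6 tested genes of the spermatid list moved with the germ cell ADAM genes. Their part in the ADAM falls was not tested. In whole testis, fewer cells of a type and less RNA per cell cannot be told apart.

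Adam1b encodes the fertilin alpha subunit found on sperm. Its normalised read count was 2.0 in knockout 1 and 6.15 in knockout 3, against 201 in control 1 and 686 in control 2. All of the knockout signal came from 8 reads, and the controls held 899. The log2 fold change of -6.33 (SE 0.62, 95% interval -7.74 to -4.92, limma, BH-adjusted p = 0.000500) was the lowest of the family in the main test, where 61 of the 17480 genes tested had a lower value. Its interval overlaps those of Adam3 and Adam18, and the order changed without knockout 1, where Adam3 had -6.06 and Adam18 -5.93, and with a pseudocount of 5, where Adam1b had -5.42 and Adam3 -5.51. Leaving out 1 library moved it to -7.21 without control 1, -5.44 without control 2, -5.70 without knockout 1 and -6.95 without knockout 3, with the call kept each time.

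Adam1a, the adjacent gene on chromosome 5, encodes the other fertilin alpha, which pairs with ADAM2 inside the endoplasmic reticulum. It had a normalised read count of 30.1 and 44.0 in the knockouts, against 28.1 and 40.7 in the controls, and the groups overlapped. Its log2 fold change was 0.10 (SE 0.38, 95% interval -0.76 to 0.97, limma, BH-adjusted p = 0.887), so changes within that interval were not detectable. The Adam1a value is uncertain. In GENCODE M21 transcripts 77.8% of its distinct 50-base words also occur in transcripts of other genes, mostly those of Mapkapk5 and of a read-through gene that overlap it on the same strand. Adam1b shares 32.4% of its words with other genes, all of them with Adam1a, while the other 6 falling members share none.

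Because the fertilin alpha neighbours differ so widely, their start regions are shown. Both are from RefSeq on build GRCm38.p6, from 250 bases before to 50 after the annotated start, on the minus strand, at chr5:121503386-121503685 for Adam1b and chr5:121521646-121521945 for Adam1a. Capitals mark matches, on either strand, to any of 5 motifs that were searched.
Adam1b: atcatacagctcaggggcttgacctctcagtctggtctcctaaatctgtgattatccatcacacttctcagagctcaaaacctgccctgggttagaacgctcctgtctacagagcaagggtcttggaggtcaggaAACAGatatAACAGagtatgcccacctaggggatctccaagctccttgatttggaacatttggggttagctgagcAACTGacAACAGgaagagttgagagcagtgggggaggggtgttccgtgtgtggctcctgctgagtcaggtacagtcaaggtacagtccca
Adam1a: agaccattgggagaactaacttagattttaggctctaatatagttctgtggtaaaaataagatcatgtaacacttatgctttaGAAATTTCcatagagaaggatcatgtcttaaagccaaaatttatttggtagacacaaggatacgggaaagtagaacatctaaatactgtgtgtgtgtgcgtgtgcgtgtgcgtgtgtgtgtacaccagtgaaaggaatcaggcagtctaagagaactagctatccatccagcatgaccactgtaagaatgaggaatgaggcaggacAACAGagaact
The motifs were the inverted pair of a heat shock element (GAANNTTC), the cyclic AMP response element (TGACGTCA), its shorter form (TGACGT, which includes the full element), the RFX half-site (GTTGCC) and the MYB core (AACNG). Adam1b held 4 matches to the MYB core, at 115, 106, 40 and 33 bases before the start, and none to the others. A MYB core occurred in 80.3% of 32851 RefSeq promoters of this length, and 4 or more in 11.8%. Adam1a held 1 match to the heat shock pair, starting 167 bases before the start, and 1 MYB core after it. The heat shock pair occurred in 7.86% of all promoters, the full response element in 1.79%, its shorter form in 7.51% and the RFX half-site in 12.5%. These are letter matches and not sites shown to be bound. The longest run of bases shared between the 2 promoters was 8. Of the 27 members 12 had a promoter in the RefSeq table, and of the 7 that fell only Adam1b did.

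Adam2 encodes fertilin beta, the partner of both fertilin alphas, and with Adam30 had the smallest falls of the 7. Adam2 fell less than Adam30 in the main test, but without knockout 1 the values were -2.29 for Adam2 and -1.83 for Adam30. Its normalised read count was 1119 in knockout 1 and 624 in knockout 3, against 2391 in control 1 and 3911 in control 2. The highest knockout library therefore lay 2.14 times below the lowest control. This was a log2 fold change of -1.87 (SE 0.28, 95% interval -2.52 to -1.22, limma, BH-adjusted p = 0.00294), which left 27.7% of the control level. With no filter on low values the adjusted p was 0.0776. Of the 7 falling genes Adam2 kept the most transcript in the knockouts, at 871.7 ± 350.4 normalised counts against 3151 ± 1075 in controls (SD, n = 2 each).

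Adam3 encodes the sperm protein needed for egg coat binding and for passage into the oviduct. Its normalised read count was 13.0 in knockout 1 and 10.2 in knockout 3, against 303 in control 1 and 1847 in control 2. The knockout libraries agreed closely, while the controls differed 6.09-fold, the widest gap between controls among the 7 genes. Its fold change on the log2 scale was -5.90 (SE 0.68, 95% interval -7.46 to -4.34, limma, BH-adjusted p = 0.000892). Leaving out control 1 gave -7.20, and leaving out control 2 gave -4.60. Even control 1 exceeded the higher knockout library 23.3-fold.

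Adam18, Adam5 and Adam32 encode further testis-specific members. Adam18 had normalised read counts of 6.01 and 3.07 in the knockouts, against 127 and 480 in the controls. Adam32 had 69.2 and 47.1 in the knockouts, against 931 and 2705 in the controls. Adam5 had 269 and 144 in the knockouts, against 2162 and 4738 in the controls. For each of these genes knockout 3 was the lowest library and control 2 the highest. The log2 fold change was -5.54 (SE 0.60) for Adam18, -4.77 (SE 0.42) for Adam32 and -4.02 (SE 0.37) for Adam5, with BH-adjusted limma p-values of 0.000746, 0.000329 and 0.000367. Without control 1 and without control 2 the values were -6.49 and -4.58 for Adam18 and -5.54 and -4.00 for Adam32. Their 95% intervals, -6.92 to -4.15 for Adam18, -5.74 to -3.80 for Adam32 and -4.85 to -3.18 for Adam5, overlap one another.

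Adam30, a testis-enriched member whose coding region is a single exon, had normalised read counts of 40.1 and 57.4 in the knockouts, against 145 and 293 in the controls. Knockout 1 was its lowest library, whereas for Adam2, Adam3, Adam5, Adam18 and Adam32 that was knockout 3. On the log2 scale the fold change was -2.08 (SE 0.35, 95% interval -2.88 to -1.28, limma, BH-adjusted p = 0.00488). The interval lies above that of Adam5 and overlaps that of Adam2, while the intervals of Adam5 and Adam2 do not overlap either. The differences themselves were not tested. With no filter on low values the adjusted p of Adam30 was 0.0764. The authors' deposited table gives the 7 genes as lower, with log2 fold changes from -6.77 for Adam1b to -1.85 for Adam2. Its DESeq2 adjusted p ran from 1.02e-08 for Adam32 to 0.00609 for Adam2. These values equal those of DESeq2 on the recovered reads and are not a separate result.

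**Figure D2:**
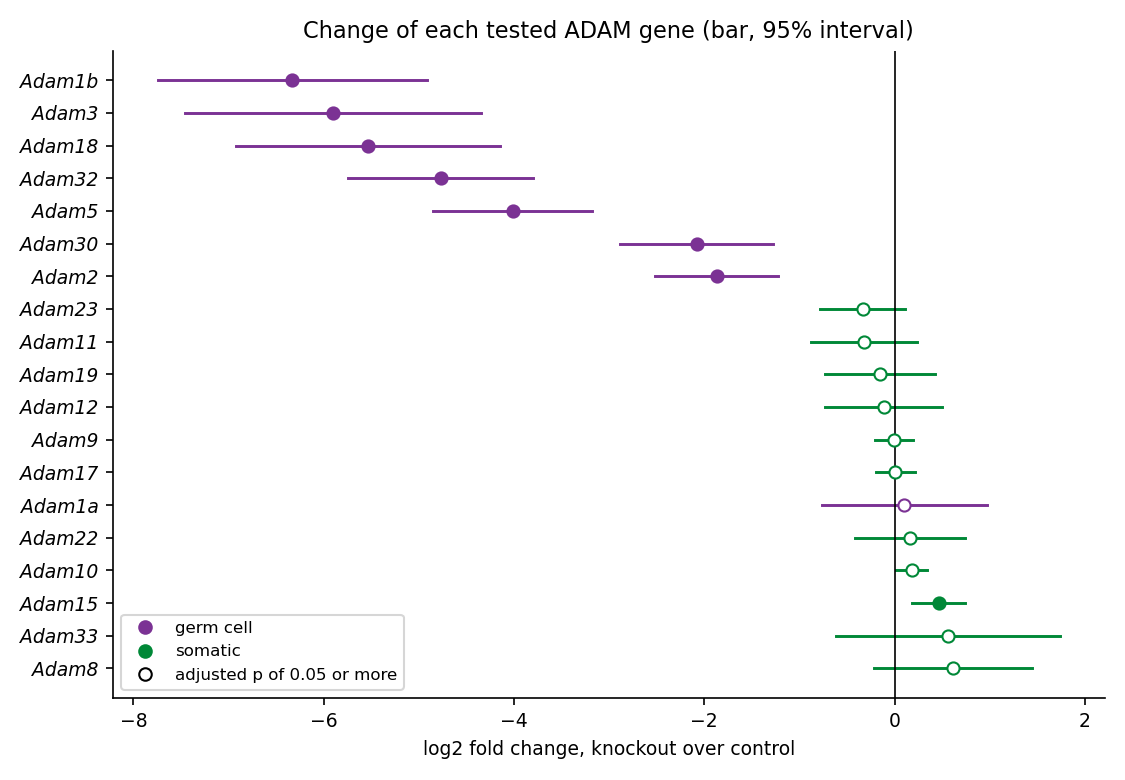
The log2 fold change of knockout over control for the 19 tested ADAM genes, with 95% intervals from limma. Filled points passed an adjusted p of 0.05. Adam1b to Adam5 lie between -6.33 and -4.02, Adam30 and Adam2 near -2.08 and -1.87, and the other genes lie around 0.

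The 7 genes also differed between the controls, always with control 2 above control 1. The ratio of control 2 to control 1 was at least 2 in 6 of them, with Adam2 at 1.64. Expressed as log2 of control 2 over control 1, the median was 1.33 over the 8 tested germ cell members, -0.05 over the somatic members and 0.02 over all genes tested. The pachytene marker list had a median of 0.64 for the same difference. Between the knockouts, the median log2 difference of knockout 3 over knockout 1 was -0.43 for the germ cell members and 0.05 for the somatic members. These signed medians do not measure spread. In size they were larger for the germ cell than for the somatic members, in controls and in knockouts. Between the knockouts the germ cell members did not move together. Their differences ran from -0.89 for Adam5 to 1.25 for Adam1b, with Adam1a at 0.54 and Adam30 at 0.51. Single tested somatic members differed between the knockouts by -0.41 for Adam11 to 0.74 for Adam12. The knockout differences of Adam1b and Adam18 rest on 8 and 9 reads. All 7 falls passed limma without each library in turn, with BH-adjusted p of at most 0.0339.

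Levels of different genes were compared per kilobase of exon, using GENCODE M21 exon lengths, since no source used here names the annotation behind the counts. On this scale Adam2 and Adam5 led the germ cell members in controls. Adam2 had 416 and 232 normalised counts per kilobase in the knockouts, against 888 and 1453 in the controls, and Adam5 had 85.8 and 46.2 in the knockouts, against 691 and 1514 in the controls. These genes cannot be ordered in controls, where Adam2 was higher in control 1 and Adam5 in control 2, while Adam2 was clearly higher in both knockouts. Adam2 made up 75.5% and 70.9% of the summed germ cell ADAM level per kilobase in the knockouts, against 41.3% and 29.0% in the controls. The share of Adam3 was 0.803% and 1.07% in the knockouts, against 4.79% and 12.6% in the controls. The summed germ cell level was 0.384 and 0.224 of the summed somatic level in the knockouts, against 1.57 and 3.83 in the controls. Per kilobase, ADAM transcripts of germ cell type were therefore the more abundant class in controls, and those of somatic type in knockouts. Without division by length, the germ cell sum was 6291 in control 1 and 14718 in control 2, against somatic sums of 7519 and 7119. The order in control 1 thus depended on the exon lengths. In the knockouts the undivided germ cell sums were 1557 and 948, against somatic sums of 7751 and 7962.

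**Figure D3:**
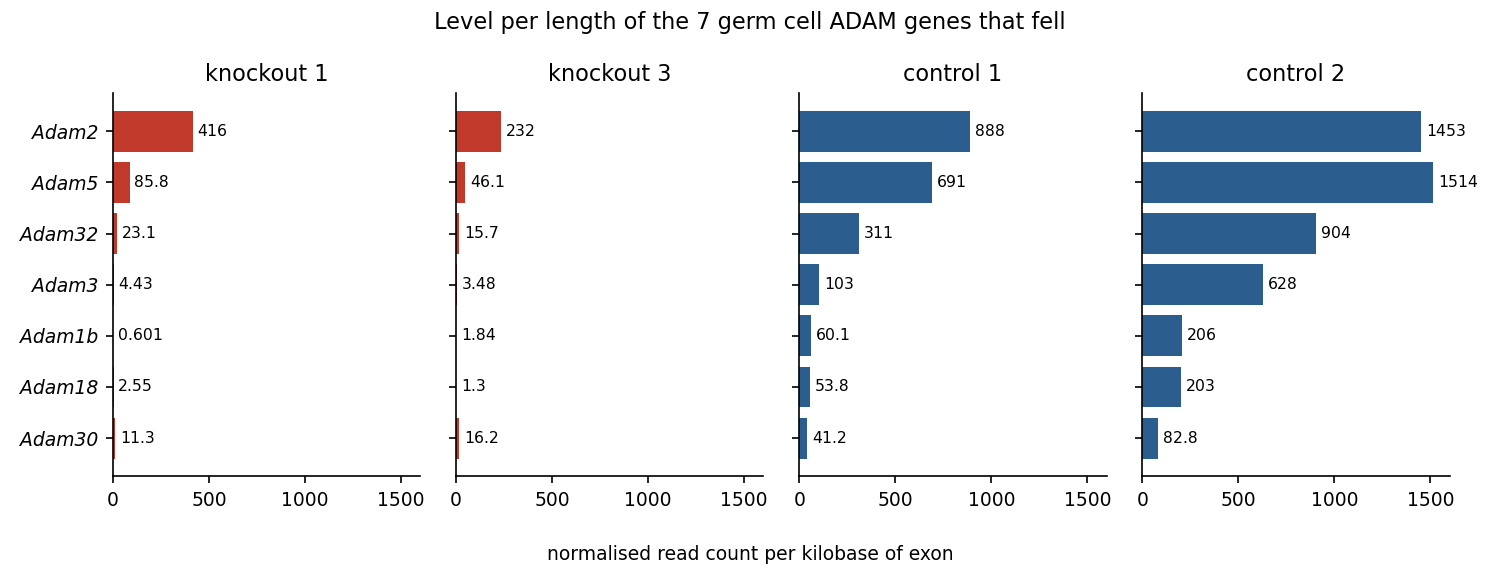
Normalised read count per kilobase of exon of the 7 germ cell ADAM genes that fell, 1 panel per library on a common linear axis. Adam2 and Adam5 are highest in both controls, and Adam2 alone stays above 200 in the knockouts.

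The chromosome 8 members lie side by side, which sets falling and steady genes next to each other. In RefSeq gene order (GRCm38.p6), among protein-coding genes of the table, Adam18, Adam3, Adam5, Adam32 and Adam9 are consecutive. The first 4 fell, with log2 fold changes from -5.90 to -4.02. Adam9, a widely expressed protease known to release growth factors, directly follows Adam32. It had normalised read counts of 1347 and 1343 in the knockouts, against 1391 and 1315 in the controls, a log2 fold change of -0.01 (95% interval -0.21 to 0.19, limma, BH-adjusted p = 0.964). Beyond Adam9, Tm2d2 had a log2 fold change of -0.18, Plekha2 of -0.35 and Tacc1 of -0.16. None was called by limma (BH-adjusted p = 0.318, 0.359 and 0.125). On the other side, Ido2 held at most 5.82 normalised counts in any library. Farther out, Tcim, Zmat4 and Sfrp1 had log2 fold changes of 0.64, 0.21 and 0.33, and none was called. Flanking genes here and on chromosome 5 were named after their values were seen.

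On chromosome 5, Tmem116 overlaps both Adam1b and Adam1a on the opposite strand. It had 134 and 124 normalised counts in the knockouts, against 190 and 252 in the controls. Its log2 fold change was -0.76 (limma, BH-adjusted p = 0.0362), a call that no fit lacking 1 library kept, with values from -0.96 to -0.56. The call was also lost in DESeq2 on all libraries (adjusted p = 0.0671). Where they overlap, reads of Tmem116 cannot be told apart from those of Adam1b or Adam1a unless the counting used strand, which is not stated. Trafd1, farther along, fell with a log2 fold change of -1.15 (limma, BH-adjusted p = 0.00107), and Naa25 between them fell by 0.54 (adjusted p = 0.0122), a call lost without control 2, knockout 1 or knockout 3 (adjusted p = 0.0586, 0.0957 and 0.0637). Erp29, next to Tmem116, had -0.18 (adjusted p = 0.290). On the other side of Adam1a, Aldh2 rose by 0.27 (limma, BH-adjusted p = 0.0236), a call that no fit lacking 1 library kept (adjusted p from 0.0942 to 0.149). Trafd1 kept its call in each of these fits. Mapkapk5, between Adam1a and Aldh2, had 36.1 and 48.1 normalised counts in the knockouts, against 25.2 and 22.8 in the controls. Its log2 fold change of 0.77 was not called (limma, BH-adjusted p = 0.188). Gulo and Ephx2, on either side of Adam2, had log2 fold changes of 0.64 and -0.19, and Notch2, next to Adam30, had 0.19. None of these was called. Alternatives for the chromosome 5 neighbours and Hsf5 were chosen after seeing the data.

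**Figure D4:**
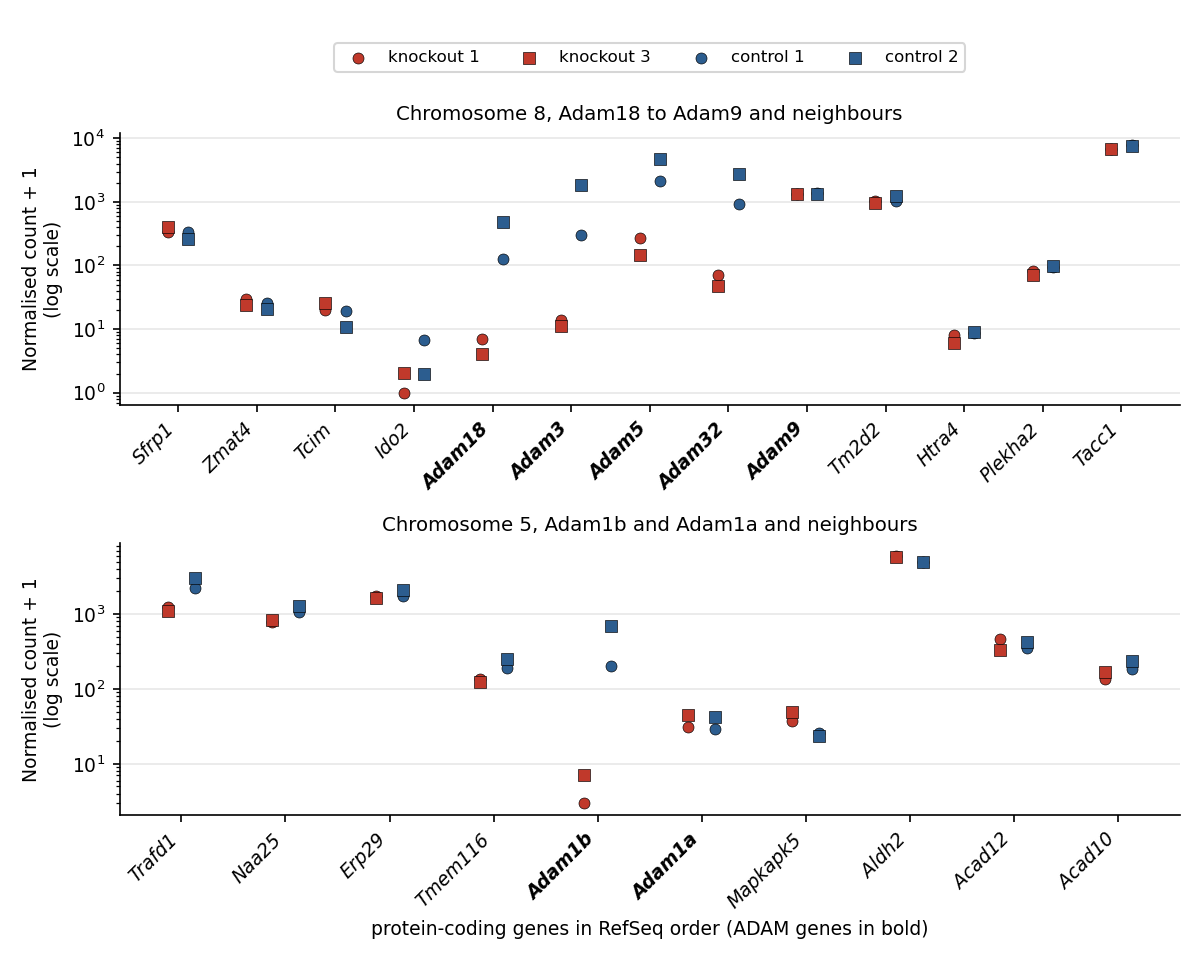
Normalised read count plus 1 (log scale) in each library for protein-coding genes in RefSeq order around the chromosome 8 ADAM block (top) and the Adam1b and Adam1a pair (bottom). Adam18, Adam3, Adam5 and Adam32 are lower in both knockouts, while the adjoining Adam9 lies at 1347 and 1343 in the knockouts and at 1391 and 1315 in the controls.

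Gene structure divided the germ cell members. In GENCODE M21, Adam2, Adam3, Adam5, Adam18 and Adam32 have 19 to 22 coding exons, and 5 of these 5 fell. The other 10 germ cell members have a single coding exon. Of these, 3 were tested and 2 fell. Beside these counts stand the 13.5% of all genes called lower, and they include Adam18 and Adam1b, which passed the filter through controls alone. All 12 somatic members have several coding exons, between 16 and 30.

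The 7 germ cell members below the filter were Adam4, Adam20, Adam21, Adam24, Adam25, Adam26a and Adam39, all with a single coding exon. Adam4 had 10 reads in the knockout libraries together and 4 in the controls, and Adam21 had 8 in the knockouts and 2 in the controls. Adam26a had 1 read in the knockouts and 5 in the controls, and Adam25 had 1 in each group. Adam20, Adam24 and Adam39 had no read in the knockouts, against 3, 3 and 2 in the controls. At this depth a difference between groups was not detectable for these genes, since 0 reads allow up to 3. Adam24, Adam25, Adam20 and Adam39 also lie side by side on chromosome 8, apart from the block with Adam3. Adam7, a somatic member known from the epididymis, had 1 read in the knockouts and 2 in the controls, and of 6 epididymal markers in the table, Adam7 included, 1 passed the filter.

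Among the somatic members, Adam10, the main protease that releases Notch, was the most abundant per kilobase. It had normalised read counts of 3389 and 3482 in the knockouts, against 3087 and 2982 in the controls. The groups did not overlap, yet the log2 fold change of 0.18 (95% interval 0.02 to 0.34) did not pass limma (BH-adjusted p = 0.13). Scaling by Sertoli markers turned the value to -0.07, and it was 0.29 with library totals alone, where it passed (adjusted p = 0.0336). Adam17, which releases TNF and ligands of the EGF receptor, had 1631 and 1686 in the knockouts, against 1734 and 1569 in the controls. Its log2 fold change of 0.01 had a 95% interval of -0.19 to 0.21 (limma, BH-adjusted p = 0.965).

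Adam15, a membrane protease with an integrin-binding disintegrin domain, was the 1 somatic member called. It had normalised read counts of 722 and 617 in the knockouts, against 493 and 476 in the controls, and the groups did not overlap. Its log2 fold change of 0.46 (SE 0.12, limma, BH-adjusted p = 0.0354) passed the test. No fit lacking 1 library kept the call, with log2 fold changes from 0.35 to 0.57. With all 4 libraries the call was also lost in DESeq2 (adjusted p = 0.0545) and in limma with no filter on low values (adjusted p = 0.118). It was lost too in limma with scaling to Sertoli markers, which gave 0.21 (adjusted p = 0.273). The authors' deposited table gives Adam15 the same DESeq2 adjusted p of 0.0545, which is not a separate result.

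The remaining somatic members did not pass the test. The noncatalytic neuronal members Adam11, Adam22 and Adam23, known as receptors of LGI proteins, had log2 fold changes of -0.32, 0.16 and -0.34. The meltrins Adam12, Adam19 and Adam33 had -0.12, -0.15 and 0.56. Adam8, a leukocyte member, had 46.1 and 61.5 normalised counts in the knockouts, against 27.1 and 43.6 in the controls, a log2 fold change of 0.61 (95% interval -0.21 to 1.44, limma, BH-adjusted p = 0.292). The intervals of these low genes are wide and take in changes of 1.5-fold.

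Sperm ADAM proteins need dedicated helpers, and 16 of a list of 17 genes known for ADAM folding, processing or surface display were in the table. Of 14 tested, 6 fell and 0 rose by limma, with 13.5% of all genes lower. Cmtm2a and Cmtm2b passed the filter on low values through the controls alone, so this count is a description. At an unadjusted p under 0.05, 1 was higher, and edgeR and DESeq2 each called 6 lower and 0 higher. The median log2 fold change was -0.15, against 0.01 over all genes tested. Cmtm2b and Cmtm2a, tandem genes needed in the mouse for ADAM3 on sperm, fell most. Cmtm2b had 1 read in the knockouts and 1449 in the controls, a ratio of controls over knockouts of 1402 with a 95% counting interval of 251 to 55420. Cmtm2a had 1 read in the knockouts and 360 in the controls, a ratio of 348 (62.1 to 13800). Both calls were kept without each library in turn, though the fitted log2 fold change moved to between -9.63 without control 1 and -7.77 without control 2 for Cmtm2b, and between -7.51 and -6.13 for Cmtm2a.

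Clgn encodes calmegin, the germ cell chaperone that joins fertilin subunits. It had 3307 and 2610 normalised counts in the knockouts, against 8045 and 10741 in the controls, a log2 fold change of -1.66 (SE 0.15, limma, BH-adjusted p = 0.000329). Pcsk4, a proprotein convertase of germ cells that processes sperm ADAM proteins, had 189 and 171 in the knockouts, against 320 and 695 in the controls. Its log2 fold change of -1.38 (limma, BH-adjusted p = 0.0177) lost the call without either knockout (adjusted p = 0.0671 without knockout 1 and 0.122 without knockout 3). Ly6k, a GPI-anchored germ cell protein, fell by 0.53 on the log2 scale, a call lost without control 1 and without knockout 3 (limma, BH-adjusted p = 0.12 and 0.153). Canx, the general chaperone calnexin, fell by 0.29, a call that no fit lacking 1 library kept (limma, BH-adjusted p from 0.0782 to 0.0846). Other genes of the list, named after their values were seen, did not pass. Calr3, the testis calreticulin needed for ADAM3, had 125 and 134 in the knockouts, against 85.3 and 79.3 in the controls (log2 fold change 0.65, limma, BH-adjusted p = 0.0769). Tex101 had a log2 fold change of -0.26, and the general chaperones Calr and Hspa5 had -0.04 and -0.02.

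**Figure D5:**
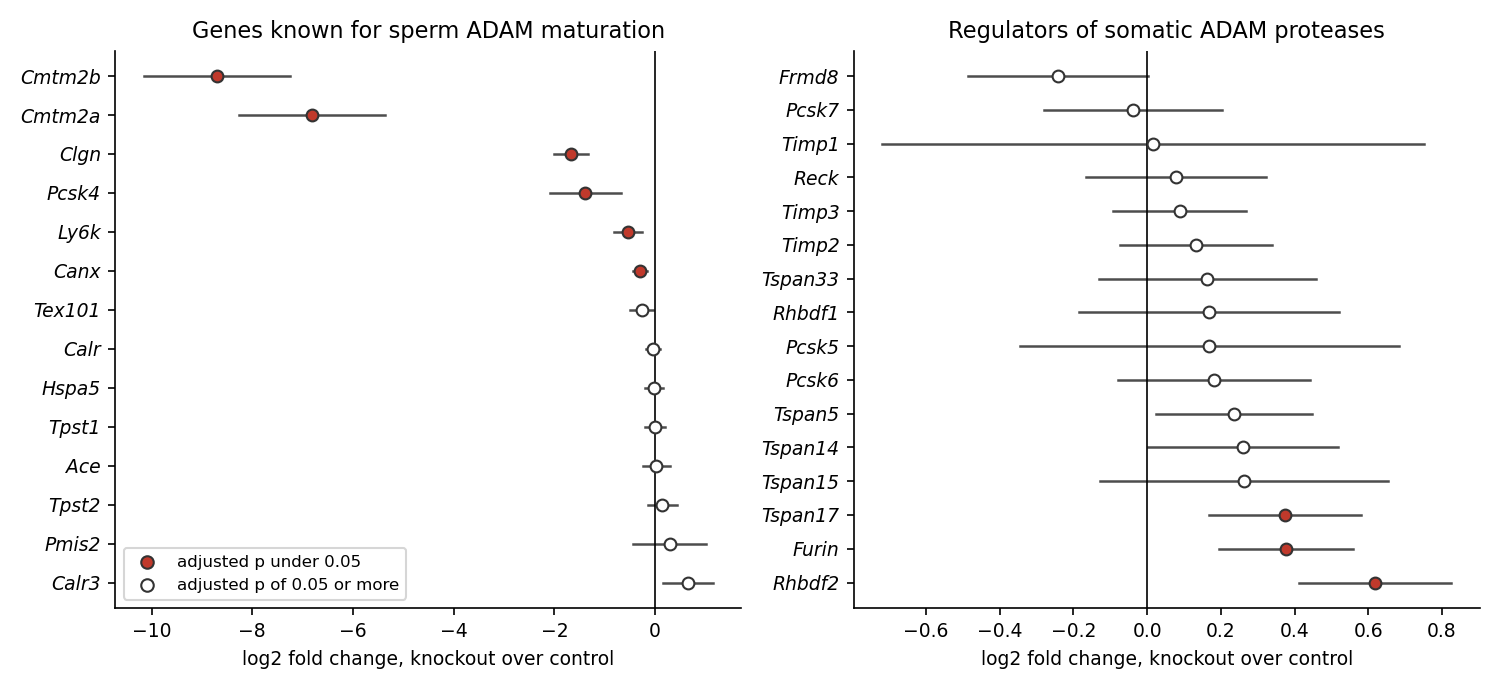
Log2 fold changes (knockout over control) and their 95% intervals for the tested genes of sperm ADAM maturation (left) and for regulators of somatic ADAM proteases (right), on different axes. Filled points passed an adjusted p of 0.05. In the left panel Cmtm2b, Cmtm2a and Clgn lie farthest below 0, at -8.70, -6.82 and -1.66, and in the right panel Rhbdf2 lies farthest above 0, at 0.62.

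Regulators of somatic ADAM proteases were described from a list of 18 convertases, escorts and inhibitors. Of 16 tested 3 rose and 0 fell by limma, beside 3.28% of all genes higher, and the median log2 fold change was 0.17. At an unadjusted p under 0.05 there were 0 lower and 5 higher, and edgeR and DESeq2 each called 0 lower and 3 higher. Rhbdf2, which encodes the iRhom that escorts ADAM17 to the cell surface, had 1541 and 1649 normalised counts in the knockouts, against 1067 and 1010 in the controls. This gave a log2 fold change of 0.62 (SE 0.09, limma, BH-adjusted p = 0.00251), a call kept without each library. Furin, which removes ADAM prodomains, rose by 0.38 on the log2 scale, and lost the call without control 2, knockout 1 or knockout 3 (limma, BH-adjusted p = 0.0668, 0.0779 and 0.122). Tspan17, a tetraspanin that escorts ADAM10, rose by 0.37, and lost the call without the same 3 libraries (adjusted p = 0.104, 0.18 and 0.0955). Scaled to Sertoli markers, the log2 fold changes were 0.37 for Rhbdf2, 0.13 for Furin and 0.12 for Tspan17. The rise of Sertoli cell markers, with 5 of 14 called, moved with these rises, and its part in them was not tested.

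The secreted Adamts family, close relatives left out by the rule, had 16 tested genes, of which 1 rose and 0 fell by limma, beside 3.28% of all genes higher and 13.5% lower. At an unadjusted p under 0.05 there was 1 higher and 0 lower, and edgeR and DESeq2 each called the same numbers. The median log2 fold change was 0.12. Adamts10, a matrix protease linked to fibrillin microfibrils, rose by 0.60 (limma, BH-adjusted p = 0.0354), and lost the call without control 1, knockout 1 or knockout 3 (adjusted p = 0.176, 0.0591 and 0.275). Adamts5 and Adamts9, proteoglycan-cleaving members with the highest mean counts over the 4 libraries (not set per length), had log2 fold changes of -0.07 and 0.15 and were not called.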

How the data were processed

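RNA of whole testes at postnatal day 16 was sequenced after NEBNext Ultra library preparation, per the labels' protocols. Cutadapt, Bowtie2, featureCounts, DESeq2 and the build mm39 appear in the submitters' processing notes, without versions. Settings and strand handling are not stated. The deposited signal per library is a read count divided by 1 size factor. It was checked that 100% of values were whole multiples of the value of 1 read in that library (within 1e-06), so whole reads were recovered. The authors' deposited table also holds a log2 fold change, its standard error and test statistic as score columns, and p-values.

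The main test was limma 3.58.1 (R 4.3.3), run with a mean-variance trend on log2(value + 1) for genes with a mean of at least 10, adjusted by the Benjamini-Hochberg method over all genes tested. Fold changes on this scale understate those of low genes. With 2 libraries per group and 6.3 prior against 2 residual degrees of freedom, p-values rest largely on variance pooled over genes. Nothing in the labels says that the samples came from separate animals, so a p-value here reflects sample-to-sample spread, which may be technical. Knockout 2 and control 3 were not analysed here. The ADAM members and all lists were chosen with earlier results of these data known. Named genes were all members, Hsf5, up to 6 called genes of each pathway list by size of change and, with under 2 calls, the 2 with the highest mean count.

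Alternatives were pseudocounts of 0.5 and 5, no filter, a mean of at least 50, no trend, edgeR 4.0.16 and DESeq2 1.42.0 on recovered reads, scaling to library totals or Sertoli markers, and leaving out each library, with the filter applied anew. Read ratios carry exact 95% binomial intervals, which cover counting error only, as does the limit of 3 reads for a count of 0. The limma script was tested on simulated data. Exon lengths, coding exons and shared 50-base words came from GENCODE M21, where all 27 members matched, and promoters and gene order from RefSeq GRCm38.p6. No coordinates were converted between builds.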

Additional observations from a re-analysis of the deposited data

How the results depend on the processing

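All 7 falls of germ cell ADAM genes kept their direction in the 13 alternatives, and the count was 7 in each fit without 1 library and under both other scalings. With no filter on low values Adam2 and Adam30 lost the limma call. Without the mean-variance trend the counts lower and higher in knockouts were 40 and 0 over all genes, and 0 in both directions for the ADAM members, the germ cell and somatic members, the sperm ADAM maturation genes, the somatic regulators and the Adamts family. With no filter they were 815 lower and 37 higher over all genes, 0 ADAM members higher (0 somatic), 3 maturation genes lower, 1 regulator higher and 0 Adamts genes higher. Scaled to library totals, which moved the median log2 fold change of all genes by 0.11, 1513 genes were higher, with 2 ADAM members higher (both somatic) and 1 maturation gene higher. Scaled to Sertoli markers, which moved that median by -0.25, 4579 genes were lower and 60 higher, with 0 ADAM members and 0 Adamts genes higher, and 1 regulator lower and 1 higher. Falls were 80.5% of all calls in the main test, 57% with library totals and 98.7% with Sertoli scaling. DESeq2 called 0 ADAM members higher. Leaving out each library in turn gave 1086 to 2054 genes lower and 71 to 308 higher, 0 ADAM members higher, 3 to 5 maturation genes lower, 1 to 3 regulators higher and 0 to 1 Adamts genes higher. A fit without 1 library assumes that the lone remaining sample varies like the other group. The cause of these changes was not tested. No paired analysis was possible because nothing in the labels pairs a knockout sample with a control sample. Genes with few reads, such as the 8 members below the filter, are limited by depth.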
